A study of Mus musculus with 2 samples.

Results

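Desmosomes are button-like junctions that tie the keratin filaments of neighbouring epithelial cells together, and 9 of their genes were followed here in the newborn mouse ureter: Dsg2, Dsc2, Dsc3, Jup, Pkp1, Pkp2, Pkp3, Dsp and Perp. They were chosen by name as components of one structure, and they are 9 of 32589 counted genes. Of these, 8 had 20 or more unique molecular identifiers (UMIs, each standing for 1 captured RNA molecule) in urothelium-like nuclei, the nuclei of the epithelial lining. Dsc3 did not.

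In a desmosome, cadherins (desmogleins such as Dsg2 and desmocollins such as Dsc2 and Dsc3) reach across the gap between cells. Inside the cell their tails bind the armadillo proteins plakoglobin (Jup) and the plakophilins (Pkp1, Pkp2, Pkp3), and these bind desmoplakin (Dsp), the plakin that holds the keratin filaments. Perp is a small membrane protein of desmosomes whose gene is a known target of the p53 family, to which p63 belongs. The urothelium of the ureter is a layered epithelium, with basal cells that carry p63 and basal keratins below and uroplakin-bearing superficial cells at the lumen.

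The study measured nuclear RNA of whole ureters at postnatal day 0 by single-nucleus RNA sequencing. One library came from 14 pooled DNp63cKO mice, of genotype Pax2-cre/+;DNp63fl/fl;R26mTmG/+, in which cre from a Pax2 driver, active in the nephric duct and its ureteric bud, removes the ΔN form of p63 (gene Trp63) and switches a membrane fluorescent reporter. The other library came from 13 pooled control mice, whose labelled genotype is just wt, so whether those mice carried cre or the reporter is not known. With 1 library per pool, every value below compares 2 libraries, no test was possible, and the 95% intervals cover counting error only.

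The DNp63cKO library held 5528 nuclei with a median of 1298 UMIs and the control library 9062 with a median of 1124.5. Urothelium-like nuclei numbered 2243 (43.4% of those used) and 5127 (61.2%). They formed 8 numbered clusters, which were grouped by fixed layer markers: uroplakin-high (clusters 3 and 4), basal-keratin-high (10 and 11), cycling (5) and other urothelial (6, 9 and 14). The layer groups are not alike in make-up, since 956 of the 1046 uroplakin-high DNp63cKO nuclei lie in cluster 3 and 961 of the 1025 control ones in cluster 4, and a cluster drawn mostly from 1 library may be that library rather than a cell state. Levels are given in CPM, UMIs scaled to 1000000 per group of nuclei. Trp63, the targeted gene, was at 139 CPM in urothelium-like nuclei of DNp63cKO mice against 198 CPM in those of controls. Without clusters 3 and 14 it was at 185 and 193 CPM. Its counts join all isoforms, so they check nothing about the deletion. The libraries shared 58 barcodes.

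Cluster 3 held more leading genes of another cell type than of urothelium, as did cluster 14. In cluster 3 these included Msln, of the mesothelium, beside secreted proteins typical of liver such as Ahsg and Alb. All 5 mesothelium markers had UMIs there in DNp63cKO, summing to 1118 CPM, against 2 of 5 and 421 CPM in the 64 control nuclei, with Lrrn4, Wt1 and Muc16 at 0. Their sums over all urothelium-like nuclei were 846 and 377 CPM. In cluster 14 the mast cell markers summed to 28.0 CPM in DNp63cKO (1 of 6 with UMIs, Tpsb2 and Cma1 among those at 0) and 164 CPM in control (6 of 6). The part of these cells' RNA in the desmosome values was not tested, and values without both clusters are given below.

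In urothelium-like nuclei, desmosome genes stood lower in DNp63cKO than in control in sum. Of the layer groups as pooled, the uroplakin-high clusters had the lowest ratio of that sum and the basal-keratin-high clusters the one nearest to 0. Single clusters outside both groups (6 and 14) lay lower than either uroplakin-high cluster. Both basal-keratin-high clusters (10 and 11) were at -0.24, further from 0 than the cycling cluster at -0.21. The UMIs of the 9 genes summed to 1130 CPM in DNp63cKO and 1580 CPM in control, a log2 ratio of -0.48 (interval -0.53 to -0.44). Each log2 ratio between the libraries has DNp63cKO on top and 5 CPM added to both levels, so that 0 means equal levels. The intervals are those of the ratio without the added 5, which a low gene's log2 ratio can therefore miss. Pkp1 reached the minimum of 20 UMIs through the control library, where it is high, so it is left out of the counts and medians of members that follow. Of the other 7 measured members, 6 had a log2 ratio below 0, where 48.2% of all 14962 genes did. At -0.5 or below, the size used here to call a ratio large, lay 3 of the 7, and 4.07% of all genes. The median of the 7 was -0.47 and that of all genes 0.01.

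**Figure D1:**
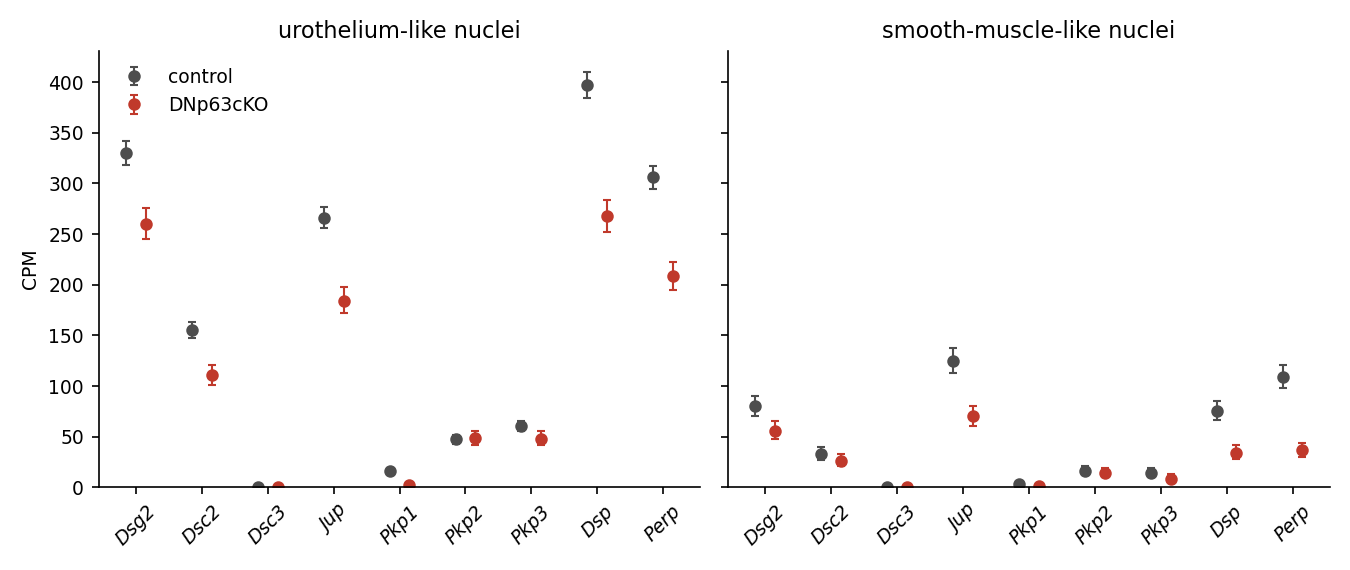
Level of each desmosome gene (vertical axis, CPM) in urothelium-like (left) and smooth-muscle-like nuclei (right) of the control and DNp63cKO libraries, 1 library each. Bars are exact Poisson 95% intervals. In urothelium-like nuclei Dsp is at 268 CPM in DNp63cKO against 397 CPM in control, Pkp2 is at 48.7 and 47.5 CPM, and Dsc3 is at or near 0 in both panels.

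Among the cadherins, Dsg2, the desmoglein found in simple as well as layered epithelia, was at 260 CPM in DNp63cKO against 330 CPM in control (log2 ratio -0.34, interval -0.44 to -0.24). Its partner Dsc2 stood at 111 and 155 CPM (-0.47, -0.64 to -0.34). Without cluster 4, which holds 961 control but 90 DNp63cKO nuclei, the Dsc2 ratio was -0.01. With every cluster given equal weight it was -0.44, and within cluster 6 it was -0.84 (-1.44 to -0.34). For neither gene do the Poisson intervals of the levels overlap between the libraries, as the plot of levels by library shows. Dsg2 overlaps a counted gene on the opposite strand, Gm16090, and whether counting used strand is not given in the sources used here. Dsc3, a desmocollin of the lower layers of thick stratified epithelia, had 0 UMIs in DNp63cKO, which allows up to 0.702 CPM, and 2 UMIs in control. Dsc3 was thus at or under the level that 3 counts give in both libraries, and no ratio is given for it.

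Plakoglobin (Jup; mm10 chromosome 11, 100368958 to 100397763, minus strand), which also serves adherens junctions, was at 184 CPM in DNp63cKO against 266 CPM in control (log2 ratio -0.52, interval -0.65 to -0.41). Of the plakophilins, Pkp1 and Pkp3 were lower in DNp63cKO, and Pkp2 was level within counting error. Pkp1 (chromosome 1, 135871395 to 135919207, minus strand), the plakophilin of the upper layers of stratified epithelia, was at 2.34 CPM from 10 UMIs in DNp63cKO against 16.6 CPM from 155 UMIs in control. Its log2 ratio was -1.56, the lowest of the 8 measured members, and the interval without the added 5 CPM ran from -3.92 to -1.91. Pkp3 (chromosome 7, 141078218 to 141090510, plus strand), an epithelial plakophilin, stood at 48.2 and 60.3 CPM (-0.30, -0.56 to -0.09). Pkp2 (chromosome 16, 16213318 to 16272712, plus strand), which is also the plakophilin of heart muscle, stood at 48.7 and 47.5 CPM (0.03, -0.21 to 0.28), so no difference was detectable at this depth.

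Desmoplakin (Dsp; chromosome 13, 38151294 to 38198577, plus strand) was at 268 CPM in DNp63cKO against 397 CPM in control (log2 ratio -0.56, interval -0.67 to -0.47). Perp (chromosome 10, 18845020 to 18857073, plus strand) stood at 208 and 306 CPM (-0.54, -0.66 to -0.44). Dsp, Perp and Jup are the 3 members at or below -0.5 beside Pkp1. Without clusters 3 and 14, Dsp was at 276 and 401 CPM (-0.53), Jup at 191 and 268 CPM (-0.48), and Perp at 266 and 306 CPM (-0.20). Without cluster 4 the Dsp ratio was -0.18. When clusters 3 and 14 were left out, Dsc2 moved the other way, to 92.5 and 156 CPM (-0.72). The sum over the members was then 1194 and 1584 CPM (-0.41), with 6 of 7 below 0 (44.7% of all genes) and 2 of 7 at -0.5 or below (5.29%). Leaving out cluster 3 takes 956 of the 1046 uroplakin-high nuclei from DNp63cKO but 64 of 1025 from control, so unlike mixes of layers are then compared. Uroplakins were lower in DNp63cKO in what remained (Upk1b -0.56, Upk3a -0.51).

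The stretch just upstream of a gene's start is shown for Dsp and Jup, which were lower together and are the 2 of the 9 members with a RefSeq promoter entry here (build GRCm38.p6, which is the mm10 assembly). Each run is the 250 bases before RefSeq's start site, read along the gene's strand, with motif matches on either strand in capitals. For Dsp (chr13:38151044-38151293, plus strand) the first capitals are a match to the p53-family half-site and the other 4 are GC boxes (GGGCGG or its reverse complement). For Jup (chr11:100397791-100398040, minus strand) they are 2 CCAAT boxes and 2 GC boxes.
Dsp: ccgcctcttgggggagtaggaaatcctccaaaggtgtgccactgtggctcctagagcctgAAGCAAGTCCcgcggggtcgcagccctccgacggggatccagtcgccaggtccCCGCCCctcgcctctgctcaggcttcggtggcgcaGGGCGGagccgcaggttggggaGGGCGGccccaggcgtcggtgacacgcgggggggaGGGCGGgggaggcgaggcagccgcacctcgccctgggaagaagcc
Jup: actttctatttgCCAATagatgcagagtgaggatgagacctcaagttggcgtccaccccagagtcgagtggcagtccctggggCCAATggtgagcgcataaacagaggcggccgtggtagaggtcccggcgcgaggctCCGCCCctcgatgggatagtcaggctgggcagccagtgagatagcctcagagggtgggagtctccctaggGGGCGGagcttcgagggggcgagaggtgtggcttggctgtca

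The Dsp half-site match covers positions -190 to -181 from the start and overlaps no other match. Jup had 0 matches to that half-site. Such a match occurred in 7.13% of 32851 RefSeq promoters cut to the same length, a GC box in 32.7% and a CCAAT box in 33.8%. The site of the Grainyhead-like factors (AACCNGTT, in 1.79% of promoters), the AP-1 site (TGANTCA, 6.75%) and the TATA box (TATAAA, 12.4%) had 0 matches in both runs. G and C made up 72.4% of the Dsp run and 62% of the Jup run, against a median of 52.4% over all promoters. These are letter matches in a 250-base window and no measure of binding.

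Of the 4 layer groups, the uroplakin-high clusters had the lowest ratio of the summed members. There the members summed to 1091 CPM in DNp63cKO and 1825 CPM in control (log2 ratio -0.74, interval -0.81 to -0.68). This pooled value lies below that of each of its clusters (-0.45 in cluster 3 and -0.62 in cluster 4), since most DNp63cKO nuclei are in cluster 3 and most control nuclei in cluster 4. Without cluster 4 it was -0.45, no lower than the -0.46 of the other urothelial clusters. Of the 7 members without Pkp1, 6 had a ratio below 0 and 4 were at -0.5 or below, where 41.5% and 7.32% of all genes were, and the median was -0.74 against 0.08 for all genes. Dsp stood at 257 and 533 CPM, a log2 ratio of -1.03 (interval -1.18 to -0.92). Perp stood at 164 and 300 CPM (-0.85, -1.04 to -0.70), Dsc2 at 130 and 224 CPM (-0.76) and Jup at 179 and 303 CPM (-0.74). Pkp3 at 44.3 and 60.4 CPM (-0.41) and Dsg2 at 269 and 341 CPM (-0.33) differed less.

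Pkp1 and Pkp2 were the extremes of the uroplakin-high clusters. Pkp1 was at 1.64 CPM (4 UMIs) in DNp63cKO against 29.9 CPM (111 UMIs) in control, and these 111 are most of the 155 Pkp1 UMIs of the control urothelium. Pkp2 was the 1 member with a higher level in DNp63cKO, 45.1 against 33.2 CPM (log2 ratio 0.39, interval 0.06 to 0.83). Its ratio lay at 0.34 within cluster 4 and at -0.10 within cluster 3, with intervals that include 0 in both.

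**Figure D2:**
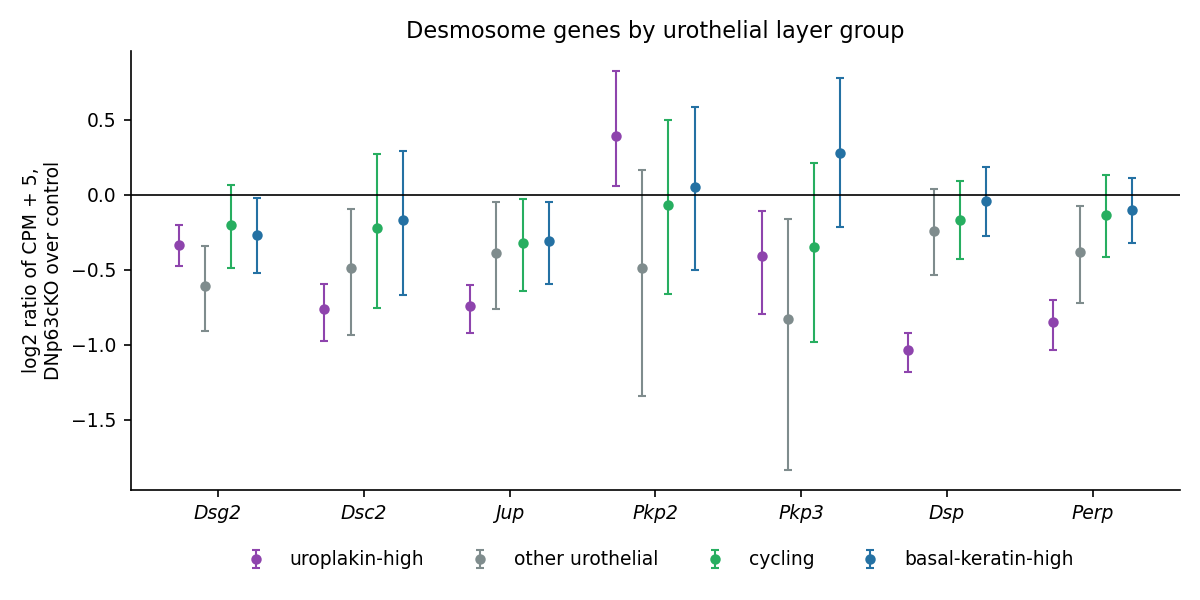
Log2 ratio of CPM + 5, DNp63cKO over control (vertical axis), of 7 desmosome genes in 4 groups of urothelial clusters named by their layer markers. Bars are exact conditional binomial 95% intervals, Dsc3 and Pkp1 are left out because of low counts, and the Dsp ratio runs from -1.03 in uroplakin-high to -0.04 in basal-keratin-high clusters. Clusters are pooled within each group, and the Dsp ratio is -0.29 within cluster 10 and -0.01 within cluster 11.

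In the basal-keratin-high clusters the sum of the members was at 1420 CPM in DNp63cKO against 1567 CPM in control (log2 ratio -0.14, interval -0.25 to -0.03). That ratio turned to 0.038 as a mean over nuclei and to 0.13 after an estimate of free RNA, which is RNA loose in the droplets, was subtracted. As pooled, the ratio lies nearer to 0 than in either of its clusters, which both gave -0.24. Cluster 10 held 221 DNp63cKO and 274 control nuclei, and cluster 11 held 120 and 1227. Of 7 measured members, 5 had a ratio below 0 and 0 were at -0.5 or below, where 51.9% and 12.1% of all genes were. As pooled, Dsp stood at 332 and 341 CPM (-0.04, -0.27 to 0.19) and Perp at 366 and 393 CPM (-0.10, -0.32 to 0.11). Within cluster 10 Dsp was at 344 and 421 CPM (-0.29, -0.60 to 0.01) and Perp at 396 and 507 CPM (-0.36, -0.64 to -0.08). Within cluster 11 Dsp was at 308 and 311 CPM (-0.01) and Perp at 308 and 349 CPM (-0.18). In the pooled group only Jup, at 228 and 284 CPM (-0.31), and Dsg2, at 274 and 330 CPM (-0.27), had intervals of the ratio below 0. Such intervals narrow as UMI counts rise, and the share of all genes with one below 0 was not worked out. Pkp3, at 78.2 and 63.8 CPM (0.28, -0.21 to 0.78), lay on the other side of 0 from its ratio in the uroplakin-high clusters.

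In the cycling cluster the members summed to 1198 and 1387 CPM (log2 ratio -0.21, interval -0.34 to -0.09), with all 7 measured ratios below 0 (51.5% of all genes) and 0 at -0.5 or below (11.4% of all genes). The sum's ratio turned to 0.047 after free RNA was subtracted and to 0.13 in nuclei with Y-linked and no Xist UMIs. Of the members, Jup alone, at 199 and 251 CPM (-0.32), had an interval below 0. The share of all genes with such an interval was not worked out here either. In the other urothelial clusters the sum was 919 and 1262 CPM (-0.46), and 7 of the 7 members without Pkp1 had a ratio below 0 (51.7% of all genes), 2 of them at -0.5 or below (11.6%). Those 2 were Pkp3 (26.3 and 50.7 CPM, -0.83) and Dsg2 (216 and 331 CPM, -0.61). Pkp1 was at 5.26 and 10.9 CPM from 3 and 23 UMIs.

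By single cluster, the ratio of the summed members ran from near 0 in cluster 9 to -1.30 in cluster 14. Cluster 4 gave 1193 and 1835 CPM (log2 ratio -0.62, interval -0.80 to -0.45) and cluster 3 gave 1081 and 1477 CPM (-0.45, -0.69 to -0.20). In cluster 4, Dsp stood at 215 and 538 CPM (-1.31) while Dsg2 stood at 365 and 341 CPM (0.09). Pkp1 had 0 UMIs in the 90 DNp63cKO nuclei of cluster 4 and 109 in the 961 control nuclei, which makes it at least 2.35-fold lower when 3 counts are taken as the limit of a 0. In cluster 3, whose control side has 64 nuclei, Perp stood at 157 and 284 CPM (-0.83, -1.40 to -0.25), Dsp at 262 and 333 CPM (-0.34, -0.84 to 0.20) and Dsc2 at 129 and 127 CPM (0.02).

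Cluster 6, marked by Cdh20 and Htr4, held less desmosome RNA in both libraries than any other urothelial cluster of over 200 nuclei in each. Its sums were 710 and 1131 CPM (log2 ratio -0.67, interval -0.88 to -0.47). Its cadherins stood lower together, Dsg2 at 185 and 337 CPM (-0.84) and Dsc2 at 98.5 and 180 CPM (-0.84). In cluster 9 the libraries differed by less than counting error, with sums of 1361 and 1366 CPM (-0.01, -0.21 to 0.19). Clusters 10 and 11 both gave -0.24, with sums of 1505 and 1781 CPM and of 1258 and 1485 CPM, and turned to 0.010 and 0.014 after free RNA was subtracted. Cluster 11 also turned, to 0.060, in nuclei with Y-linked and no Xist UMIs. Cluster 14 rests on 34 DNp63cKO nuclei with 21 member UMIs (589 and 1456 CPM, -1.30, -2.02 to -0.67).

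**Figure D3:**
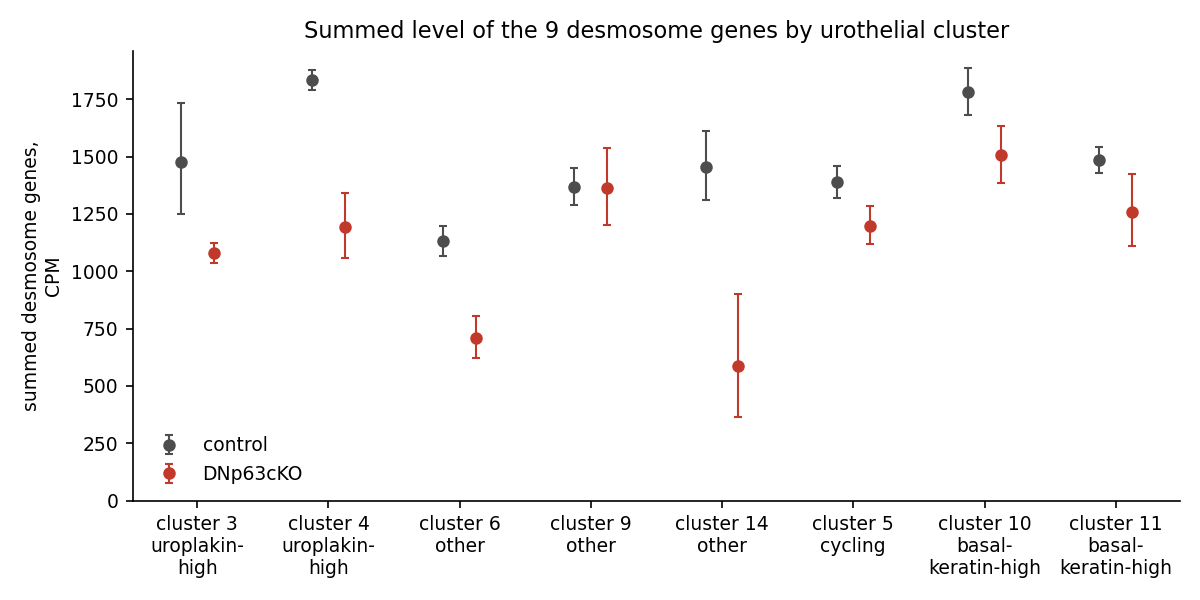
Summed level of the 9 desmosome genes (vertical axis, CPM) in each urothelial cluster of the control and DNp63cKO libraries, ordered by layer group, with exact Poisson 95% intervals. In 7 of the 8 clusters the DNp63cKO value lies below the control value by more than its interval of the ratio allows, though free RNA subtraction turns 3 of these (clusters 5, 10 and 11) to between 0.010 and 0.047, and in cluster 9 the libraries are nearly level (1361 and 1366 CPM).

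Because clusters 3 and 4 split by library, the urothelium-like nuclei were also divided into tertiles by the share of their UMIs that came from Upk1a, Upk1b, Upk2 and Upk3a. This range of a score, with cuts at 0.348% and 0.924%, is not a cell type, and 523 and 560 nuclei lay within 10% of the cuts. The tertiles do not undo the split of clusters 3 and 4, since both are uroplakin-high. The clusters that make up each tertile are not given here. In the low tertile (569 DNp63cKO and 1889 control nuclei) the members summed to 1261 and 1396 CPM (log2 ratio -0.15, interval -0.25 to -0.05). In the middle tertile (709 and 1746) the sums were 994 and 1487 CPM (-0.58, -0.68 to -0.49), and in the high tertile (965 and 1492) 1150 and 1735 CPM (-0.59, -0.66 to -0.53). The median ratio of the members without Pkp1 was -0.11, -0.45 and -0.58 in the same order, with 0 of 7, 3 of 7 and 4 of 7 at -0.5 or below, where 11%, 9.28% and 6.52% of all genes were.

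The single genes differed in how they ran over the tertiles. Dsp in control stood at 308, 319 and 494 CPM from low to high, and in DNp63cKO at 308, 205 and 284 CPM, so the libraries were level in the low tertile only. Perp went from 338 to 330 to 274 CPM in control and from 309 to 185 to 182 CPM in DNp63cKO, and Jup from 245 to 255 to 285 CPM and from 227 to 152 to 185 CPM. Dsc2 was highest in the high tertile of both libraries (220 CPM in control, 137 CPM in DNp63cKO), and Pkp2 lowest there (36.6 and 41.4 CPM), with no difference between the libraries beyond counting error in any tertile. Pkp1 in control stood at 3.78, 8.85 and 28.3 CPM, and in DNp63cKO at 1.16, 0.876 and 3.52 CPM from 1, 1 and 8 UMIs.

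**Figure D4:**
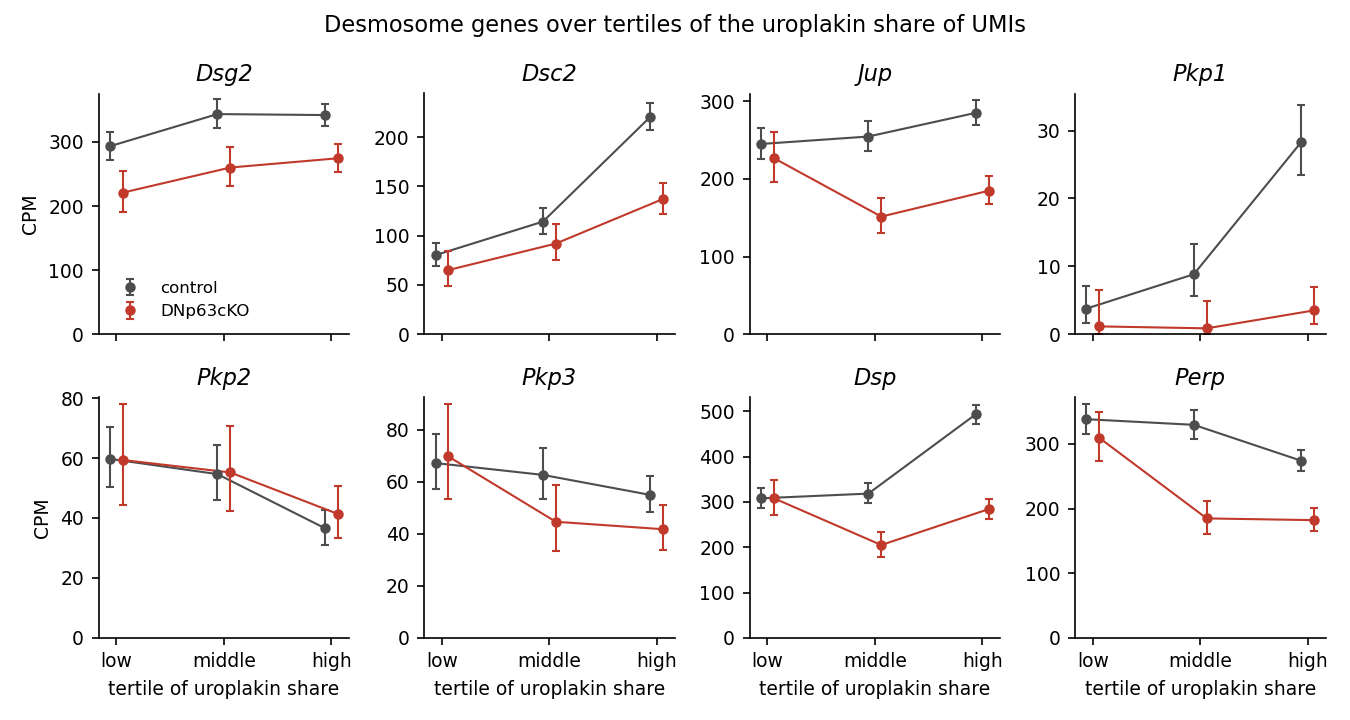
Level (vertical axes, CPM, each from 0 on its own scale) of 8 desmosome genes in the low, middle and high tertile of urothelium-like nuclei by uroplakin share of UMIs, for the control and DNp63cKO libraries, with exact Poisson 95% intervals. In the low tertile both libraries have Dsp at 308 CPM, and in the high tertile it is at 494 CPM in control and 284 CPM in DNp63cKO.

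The same data can be read within each library, as the uroplakin-high over the basal-keratin-high clusters, a contrast that needs no scaling between libraries. For Dsp this log2 ratio was 0.64 in control (533 over 341 CPM, interval 0.53 to 0.76) and -0.36 in DNp63cKO (257 over 332 CPM, -0.60 to -0.13). Jup gave 0.09 (interval -0.04 to 0.24) and -0.34 (-0.63 to -0.06), and Perp -0.38 (-0.52 to -0.26) and -1.13 (-1.40 to -0.91). As pooled, Dsp was thus higher towards the uroplakin-high side in control and lower there in DNp63cKO, while Perp was higher on the basal side of both libraries. The libraries do not fill these groups from the same clusters. Uroplakin-high nuclei lie mostly in cluster 3 in DNp63cKO and in cluster 4 in control, and basal-keratin-high ones mostly in cluster 10 and in cluster 11. In control, Dsp was at 333 CPM in cluster 3 and 538 CPM in cluster 4, and in DNp63cKO at 262 and 215 CPM. Dsc2 was higher on the uroplakin-high side of both, at 1.29 (1.12 to 1.56) and 0.70 (0.29 to 1.22). Dsg2 was level across the layers in both, at 0.05 (-0.08 to 0.18) and -0.02 (-0.27 to 0.23). For the sum the contrast was 0.22 (0.16 to 0.28) and -0.38 (-0.49 to -0.27). The difference between the libraries in these contrasts was not tested, as each has 1 library.

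**Figure D5:**
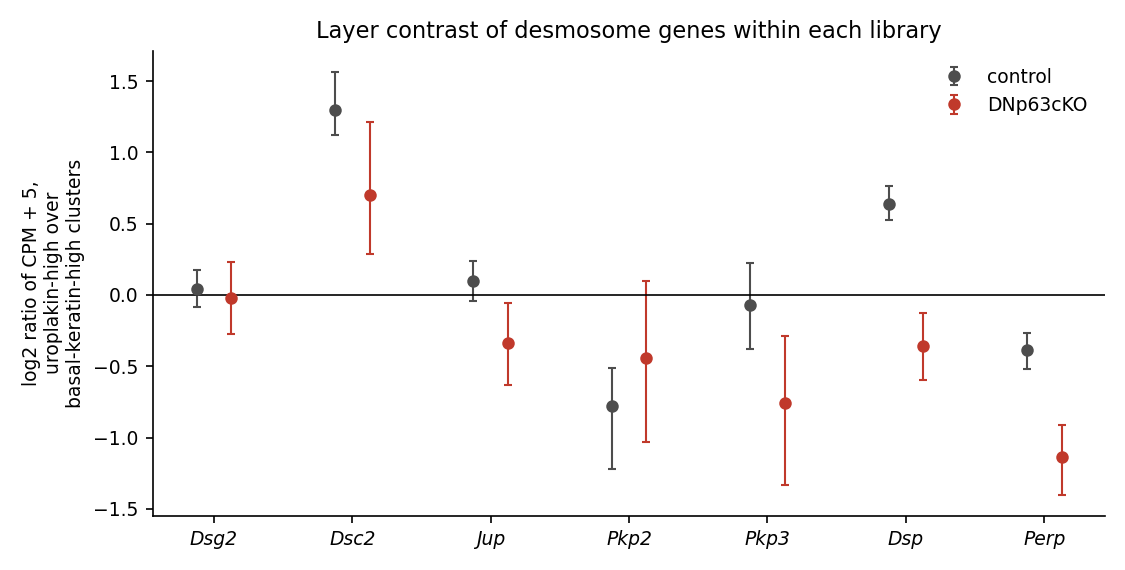
Log2 ratio of CPM + 5, uroplakin-high over basal-keratin-high clusters (vertical axis), of 7 desmosome genes within the control and within the DNp63cKO library, with exact conditional binomial 95% intervals. Dsp is above 0 in control (0.64) and below 0 in DNp63cKO (-0.36), Dsc2 is above 0 in both and Perp below 0 in both. The groups hold unlike mixes of clusters in the libraries.

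Counted by nucleus after thinning each to 700 UMIs, 14.6% of DNp63cKO (303 of 2077; Clopper-Pearson interval 13.1 to 16.2%) and 20.1% of control urothelium-like nuclei (852 of 4234; 18.9 to 21.4%) had a Dsp UMI. In smooth-muscle-like nuclei, which should lack this epithelial gene, the shares were 3.003% and 4.98%. Before thinning the urothelial shares were 31.1% and 35.9%, at median depths of 1466 and 1231 UMIs, while smooth-muscle-like nuclei had medians of 1203 and 962.5. In the uroplakin-high clusters Dsp was found in 13.2% and 27.7% of thinned nuclei, and in the basal-keratin-high clusters in 20.7% and 19.5%. Any of the 9 members was found in 49.4% (46.3 to 52.5%) and 70.4% (67.5 to 73.2%) of uroplakin-high nuclei and in 57.0% (51.5 to 62.4%) and 60.9% (58.2 to 63.6%) of basal-keratin-high nuclei, against 15.6% and 26.6% of smooth-muscle-like nuclei. Pkp1 was found in 0.193% of DNp63cKO urothelium-like nuclei (4 of 2077), no more than counting error above the 0.0812% of smooth-muscle-like nuclei, and in 0.803% against 0.289% in control.

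Nuclei of other classes also held UMIs of these genes. In smooth-muscle-like nuclei the members summed to 248 CPM in DNp63cKO and 457 CPM in control (log2 ratio -0.87, interval -1.02 to -0.75), with Dsp at 34.1 and 75.3 CPM, Perp at 36.5 and 109 CPM and Jup at 70.2 and 125 CPM. All 7 measured ratios were below 0 there (48.5% of all genes), and 4 were at -0.5 or below (4.46%). Fibroblast-like nuclei summed to 252 and 389 CPM (-0.62), with 6 of 6 ratios below 0 (48.6% of all genes). Endothelium-like nuclei summed to 429 and 468 CPM (-0.12, -0.43 to 0.18), with 4 of 5 below 0 (50.8% of all genes). Jup, whose product also sits in endothelial junctions, stood at 126 and 131 CPM there. Over all nuclei used, of which urothelium-like nuclei are a smaller share in DNp63cKO, the members summed to 677 and 1193 CPM (-0.81).

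Free RNA, released from broken cells and caught with every nucleus, can place urothelial RNA in other classes. The 4 uroplakins, urothelial genes that smooth muscle should lack, stood in smooth-muscle-like nuclei at 20.2 to 23.2% of their urothelial level in DNp63cKO and at 15.8 to 19.5% in control. The members without Pkp1 and Dsc3 stood at 12.7 to 38.1% and 19.0 to 47.0%, with Jup highest in both libraries. Perp was at 17.5% in DNp63cKO and 35.7% in control, and Dsp at 12.7% and 19.0%. Uroplakins in smooth-muscle-like nuclei were higher in DNp63cKO (Upk1a 586 against 333 CPM), the opposite direction to the members. Free RNA was not measured in empty droplets, and its profile was taken as the sum over all nuclei of a library. Its share was set as the uroplakin level in smooth-muscle-like nuclei over that in the profile (36.4% and 23.6%). The estimate thus also depends on the share of urothelium-like nuclei (43.4% and 61.2%). After its subtraction, Dsp in the uroplakin-high clusters was at 321 and 607 CPM (-0.91). The median of the members without Pkp1 there was at -0.62, with 6 of 7 below 0. In the basal-keratin-high clusters the subtraction turned the median from -0.10 to 0.19 and Dsp from -0.04 to 0.29, and 2 of 7 ratios were then below 0. In the cycling cluster it moved the median from -0.20 to 0.01. The median and the share below 0 of all genes after the subtraction were not worked out. The counts and medians after it are thus no result about the members alone.

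Other genes of the desmosome and its neighbours, from lists fixed by name, gave the following in urothelium-like nuclei, read against the 48.2% of all genes with a ratio below 0. Of the other desmosomal cadherins and plakophilins, Pkp4 alone had enough UMIs. It stood at 211 and 218 CPM (log2 ratio -0.04, interval -0.16 to 0.07) and also sat in smooth-muscle-like nuclei at 46.5% and 57.1% of that level. Of 6 measured plakins, 4 had a ratio below 0 (median -0.25) and 0 passed -0.5. Evpl (envoplakin) stood at 431 and 473 CPM (-0.13), and Dst and Macf1, large linkers of the cytoskeleton, at 386 and 383 CPM (0.01) and 366 and 353 CPM (0.05). In the uroplakin-high clusters, where 41.5% of all genes were below 0, all 6 were (median -0.57), Plec (plectin, named after its values were seen) at 257 and 519 CPM (-1.002) and Evpl at 560 and 803 CPM (-0.52).

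The keratins that desmosomes anchor did not share a direction. Of 10 measured, 6 had a ratio below 0 and the median was -0.06. Krt7 (945 and 1528 CPM, -0.69), Krt20 (322 and 466 CPM, -0.52) and Krt15 (5.38 and 23.4 CPM, -1.45) were at -0.5 or below. Krt14 (132 and 21.5 CPM, 2.37), Krt4 (19.0 and 4.29 CPM, 1.37) and Krt23 (59.7 and 28.5 CPM, 0.95) were at 0.5 or above, as 5.71% of all genes were. The most abundant, Krt18 and Krt8, stood at 3045 and 3214 CPM (-0.08) and 2207 and 2279 CPM (-0.05).

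Among 13 transcription factors known for epithelial junction genes, 6 had a ratio below 0 (median 0.01). Grhl2, a Grainyhead-like factor, stood at 87.0 and 136 CPM (-0.62). Ovol1 (54.3 and 30.8 CPM, 0.73) and the repressors Zeb1 (31.4 and 19.95 CPM, 0.54) and Zeb2 (68.8 and 39.0 CPM, 0.74) were higher in DNp63cKO. The levels of Zeb1 and Zeb2 in other classes are not given here. Nuclei of those classes are a larger share of DNp63cKO, where 43.4% were urothelium-like against 61.2% in control. The part of their free RNA in these values was not tested. Of 11 genes of desmosome turnover, 5 were below 0 (median 0.08), with Flot1, a membrane raft protein, at 58.0 and 37.8 CPM (0.56).

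The other junctions had medians nearer to 0 than the -0.47 of the members without Pkp1. Of 10 adherens junction genes 7 were below 0 (median -0.08), 2 of them at -0.5 or below: Nectin1 (65.7 and 181 CPM, -1.40) and Ctnnb1, which codes for beta-catenin (630 and 954 CPM, -0.59). Cdh1, the cadherin of these junctions, stood at 1026 and 1029 CPM (0.00). Of 13 tight junction genes 7 were below 0 (median -0.07), with Pard3 at 173 and 284 CPM (-0.70) and Cldn8 at 422 and 285 CPM (0.56). Of 9 hemidesmosome genes, which tie basal cells to the matrix, 6 were below 0 (median -0.11), with Itga6 at 240 and 558 CPM (-1.20) and Col17a1 at 2.81 and 6.86 CPM (-0.60). By layer group the hemidesmosome genes parted. In the basal-keratin-high clusters 2 of 9 were below 0 (median 0.37), where 51.9% of all genes were. In the cycling cluster 2 of 8 were (median 0.13, all genes 51.5%), and in the uroplakin-high clusters 7 of 8 (median -0.15, all genes 41.5%). These lists were not tested against the members.

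The 5 genes whose level most resembled the summed members over 24 class or cluster and library units were Aqp3 (Pearson's r 0.970), Krt19 (0.964), Cldn4 (0.962), Srebf1 (0.960) and Sorl1 (0.960), of 9741 genes compared. Aqp3 is a water and glycerol channel and Cldn4 a claudin of tight junctions. The units share 2 libraries, their free RNA and the gap between urothelial and other nuclei, so these correlations are a description with no p.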

How the data were processed

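Nuclear RNA of ureters was measured in 1 pooled library per genotype. The authors deposited raw UMI counts. Per the submitters' processing notes the tools were Seurat 4.0.5, R 4.0.5, STAR 2.7.11a and STARsolo, with roles unstated, and the build mm10. Which annotation and barcode filter were used, and whether introns counted, is not given in the sources used here. Each deposited nucleus had 500 or more UMIs. The members and lists were chosen with earlier results of these data known.

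Nuclei needed 300 genes and no more than 5% mitochondrial UMIs (5491 and 8889 passed). The doublet caller Scrublet marked 0 nuclei and had not worked, so the top 5% by score were removed (319 and 516), leaving 5172 and 8373. Leiden clustering (scanpy 1.11.5, resolution 1, 2000 variable genes, 30 principal components, 15 neighbours) left desmosome genes out, though 0 were among the variable genes. It gave 18 clusters, named "X-like" from fixed markers by a scoring rule set after marker values were seen. Layer groups pool clusters by fixed layer markers, also after the data were seen. UMIs were summed per group and library and divided by the group's total (CPM). Intervals are exact: Poisson for levels, conditional binomial for ratios, Clopper-Pearson for shares. The ratio without the added CPM and its interval were tested on simulated counts. The other steps were not tested in this way. Named genes are the members, Trp63, list genes at a log2 ratio of -0.5 or below or 0.5 or above, up to 3 others per list by CPM, and the 5 most alike in profile. Alternatives changed the added CPM, UMI minimum, scaling, weighting, depth, nucleus filter, doublets, free RNA, sex make-up, resolution and clusters used. Of 32589 gene IDs, 32522 were found in GENCODE M21, which gave positions.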

Additional observations from a re-analysis of the deposited data

How the results depend on the processing

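With 1 library per genotype, no setting replaces replicates. No paired analysis was possible because each genotype has 1 library and the labels carry no replicate numbers. In urothelium-like nuclei the summed log2 ratio was below 0 in all 22 alternatives. In 21 alternatives 6 to 8 members lay below 0. These are counted among the 8 measured members with Pkp1 included, or 9 with no UMI minimum. The share of all genes below 0 was not worked out for most of these settings, so the counts are no result about the members alone. The sum moved from -0.48 to -0.36 as a mean over nuclei, -0.42 after thinning, -0.29 after free RNA subtraction, -0.36 in nuclei with Y-linked and no Xist UMIs, -0.42 with clusters weighted equally, -0.42 without cluster 3 and -0.33 without cluster 4. Without the clusters that failed the marker check, a setting chosen after seeing the data, it was -0.41. Without cluster 4, Dsp was at -0.18 and Dsc2 at -0.01. Pkp3 turned to 0.18 in nuclei with Y-linked and no Xist UMIs, which were 15.0% and 10.9% of the class. Pkp2 lay below 0 in 5 of its 21 alternatives (-0.24 to 0.25).

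By layer group, chosen after seeing the data, the uroplakin-high sum moved from -0.74 to -0.83 as a mean over nuclei, -0.80 after thinning, -0.60 after free RNA subtraction, -0.58 in nuclei with Y-linked UMIs, -0.62 without cluster 3 and -0.45 without cluster 4. The basal-keratin-high sum turned from -0.14 to 0.038 as a mean over nuclei and to 0.13 after free RNA subtraction. It was -0.24 without cluster 10 and -0.24 without cluster 11. By cluster, free RNA subtraction turned clusters 5, 10 and 11 to 0.047, 0.010 and 0.014 and moved cluster 9 to 0.30. In nuclei with Y-linked UMIs, cluster 5 turned to 0.13 and cluster 11 to 0.060, cluster 3 moved to -0.11 and cluster 6 to -1.005. With no doublet removal the nuclei were clustered anew, and clusters 10 and 11 were both matched to the same new cluster, at -0.075. Cluster 11 was at -0.039 as a mean over nuclei. The cause was not tested for any of these. Cluster 14 gave no value in nuclei with Y-linked UMIs, since a library had 0 member UMIs there. Allowing desmosome genes in clustering gave the same clusters, as 0 were among the variable genes.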
